A study of Homo sapiens with 6 samples.

Results

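The 10 negative-feedback and output genes of the ERK pathway, DUSP1, DUSP4, DUSP5, DUSP6, SPRY1, SPRY2, SPRY4, SPRED1, SPRED2 and ETV5, were followed through RNA sequencing of 786-O cells after knockdown of the long non-coding RNA LINC02068. The rows were taken by gene symbol, from a set of genes chosen with earlier results of these data known. Each symbol matched 1 row of the 60649 genes in the count table, and all 10 rows were among the 16039 genes with enough counts to test.

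786-O is a long-used human cell line from a clear cell renal carcinoma, without working VHL, the protein that marks hypoxia-inducible factors for destruction. The 3 groups of 2 libraries each were cells with shRNA1 against LINC02068, cells with shRNA2 against LINC02068, and cells with a control hairpin (shControl). The control cells are labelled wild type, although they carry a hairpin too. All groups grew with fetal bovine serum, and the labels list no drug or other treatment. The labels do not say whether the hairpin cells were clones or mixed populations, or whether replicates came from separate cultures. The p-values therefore measure the spread between these libraries, which may be technical.

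The ERK cascade carries growth factor signals from receptor tyrosine kinases through RAS, RAF and MEK to the ERK kinases, which phosphorylate transcription factors in the nucleus. ERK activity induces its own brakes. DUSP genes encode dual-specificity phosphatases that strip phosphate from MAP kinases, Sprouty (SPRY) proteins interfere with signalling between receptors and RAF, and SPRED proteins bring the RAS-inactivating protein neurofibromin to the membrane. ETV5 belongs to the PEA3 group of ETS transcription factors, whose transcripts also follow ERK activity. The level of such transcripts is often read as a proxy for ERK output, but no kinase activity was measured here.

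The smallest library held 15376448 counts (shRNA1 replicate 1) and the deepest held 37311846 (shRNA2 replicate 1). A level of 1 CPM (counts scaled to library size, after TMM) stood for 14.9 to 36.0 counts. LINC02068 itself was scarce, with 9 and 2 counts in shRNA1 libraries, 17 and 10 in shRNA2 libraries, and 20 and 32 in shControl libraries. It was not called with shRNA1 alone (log2 fold change −1.70 ± 0.76, edgeR adjusted p = 0.0690) or with shRNA2 alone (−1.21 ± 0.68, 0.148). Its fall in the mean of both hairpins (log2 fold change −1.46 ± 0.60, edgeR adjusted p = 0.0447) was lost without any one of 5 of the 6 libraries, the exception being shRNA1 replicate 1 (log2 −1.02 to −1.50, adjusted p = 0.0972 to 0.219). Markers of the renal carcinoma line summed to 8865 to 9019 CPM with the hairpins and 7206 to 7215 CPM in controls. Most of each sum was VIM and KRT8. VIM was 5899 to 5971 CPM with the hairpins and 5142 to 5151 CPM in controls. KRT8 was 1520 to 1604 CPM with the hairpins and 831 to 832 CPM in controls. The nephron factor genes PAX8 and PAX2 were present in every group. Of 9 markers of other cell types, 6 had no counts in any library, the leukocyte gene PTPRC, the endothelial gene CDH5 and the hepatocyte gene ALB among them. The list summed to 38.5 to 45.0 CPM with the hairpins and 37.4 to 41.5 CPM in controls. Nearly all of that was the macrophage marker CD68, at 36.9 to 44.0 CPM with the hairpins and 35.8 to 39.6 CPM in controls. The endothelial gene PECAM1 had 4 to 30 counts with the hairpins and 4 and 11 in controls, and the epithelial gene EPCAM had 7 to 25 and 25 and 41. EPCAM was called lower in the mean of both hairpins (log2 −1.30 ± 0.46, edgeR adjusted p = 0.0208). By hairpin, EPCAM was called with shRNA1 (−1.75 ± 0.58, edgeR adjusted p = 0.0177) but not with shRNA2 (−0.86 ± 0.51, 0.173). CD68 and PECAM1 were not called. The part of these markers in the results was not tested. On the second principal component (10.8% of the variance) shRNA1 replicate 1 stood apart, at 31.9 against −13.8 to 2.86. In bulk RNA, less of a transcript per cell and fewer cells with it cannot be told apart.

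Averaged over the hairpins, all 10 feedback genes were lower than in shControl, and for each gene all 4 knockdown libraries lay below both control libraries. Of all tested genes 28.9% were called lower (57.5% in either direction) in that comparison at an edgeR adjusted p under 0.05, and in 34.2% all knockdown libraries lay below both controls. The median log2 change of the 10 genes was −0.81, beside −0.03 for all tested genes. Of the 10, 7 fell by more than 0.5 log2 units, which 18.5% of tested genes did, and 4 fell by more than 1, which 8.09% did. The largest fall was that of DUSP4, to 30.6% of the control level, and the smallest that of SPRED2, to 89.3%.

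**Figure D1:**
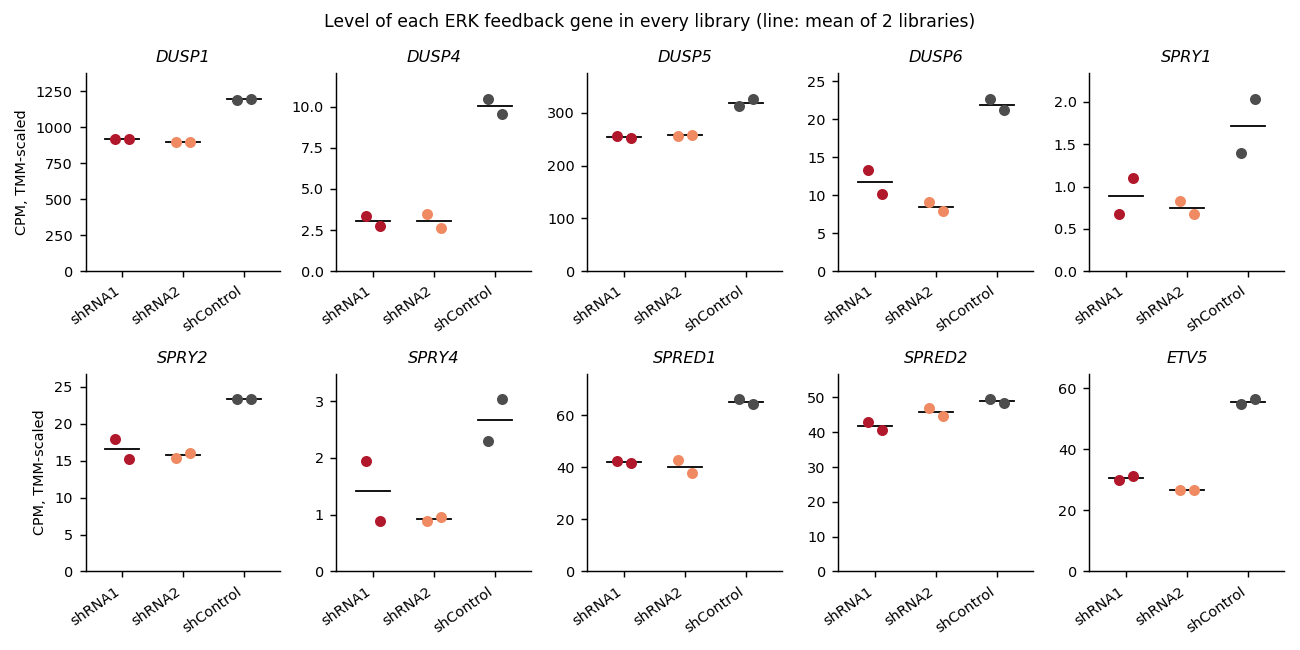
Level of each of the 10 genes in CPM over TMM-scaled library sizes (vertical axis from 0, a scale of its own for each gene), with 1 point per library and a line at the mean of the 2 libraries of each group. In every panel the shRNA1 and shRNA2 points lie below both shControl points, by the widest margin in DUSP4 and ETV5 and the narrowest in SPRED2.

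With shRNA1 alone, 8 of the 10 genes were called lower and none higher, where 25.6% and 26.8% of all tested genes were (52.4% together). With shRNA2 alone 9 were called lower and none higher, where 26.1% and 26.7% of all tested genes were (52.8% together). Both comparisons use the same pair of control libraries, so they are not independent. Lower with each hairpin and in their mean were 7 genes, DUSP1, DUSP4, DUSP5, DUSP6, SPRY2, SPRED1 and ETV5, beside 22.4% of all tested genes. SPRY1 and SPRY4 missed the threshold with shRNA1, and SPRED2 with shRNA2.

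The phosphatase genes fell by very different amounts. DUSP1 encodes a nuclear phosphatase that acts on p38, JNK and ERK and is itself an immediate early gene. Its level was 915 and 920.5 CPM with shRNA1, 900.4 and 899.7 CPM with shRNA2, and 1192 and 1195 CPM in shControl. Replicates lay close together in each group, and the knockdown groups did not overlap the controls. The log2 change was −0.39 ± 0.02 for the mean of both hairpins (edgeR adjusted p = 1.6e-09), which leaves 76.2% of the control level.

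DUSP5, a nuclear phosphatase specific for ERK, was second in abundance. It had 255 and 253 CPM with shRNA1, 256 and 259 CPM with shRNA2, and 312 and 326 CPM in shControl. All knockdown values stood close together and below the controls, at a log2 change of −0.32 ± 0.03 (edgeR adjusted p = 3.6e-07).

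DUSP6 encodes the cytoplasmic phosphatase specific for ERK. Its level was 13.4 and 10.1 CPM with shRNA1, 9.09 and 7.89 CPM with shRNA2, and 22.6 and 21.2 CPM in shControl. Both hairpin groups were well below the controls, and the shRNA2 libraries were the lowest. The log2 change was −0.90 ± 0.15 with shRNA1 (edgeR adjusted p = 9.1e-05) and −1.36 ± 0.14 with shRNA2 (1.2e-06), and −1.13 ± 0.12 in their mean (9.7e-07).

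DUSP4, a nuclear phosphatase for ERK, JNK and p38, fell the most of the 10. It reached 3.36 and 2.77 CPM with shRNA1 and 3.47 and 2.63 CPM with shRNA2, against 10.5 and 9.56 CPM in shControl. These are 50 to 125 counts per knockdown library and 195 and 268 counts in the controls. The hairpin groups coincided, at log2 changes of −1.71 ± 0.23 and −1.70 ± 0.22, and the mean was −1.70 ± 0.19 (edgeR adjusted p = 9.4e-07).

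Promoter windows of 300 bases (250 before and 50 after the gene start, RefSeq, build GRCh38.p14) were read for 7 of the 10 genes. The windows of DUSP1 and DUSP6 are shown because they were the ones among those 7 that held any of 6 short motifs searched on both strands. Capitals mark the matches, and both genes lie on the minus strand, so the letters run 5′ to 3′ along the gene from chr5:172771146-172771445 and chr12:89352452-89352751.
DUSP1: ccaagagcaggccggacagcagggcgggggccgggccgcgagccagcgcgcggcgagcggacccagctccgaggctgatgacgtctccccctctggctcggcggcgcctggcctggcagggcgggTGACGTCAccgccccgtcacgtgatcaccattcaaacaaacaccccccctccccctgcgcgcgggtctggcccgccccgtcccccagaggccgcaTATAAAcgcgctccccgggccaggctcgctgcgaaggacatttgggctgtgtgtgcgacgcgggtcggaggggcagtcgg
DUSP6: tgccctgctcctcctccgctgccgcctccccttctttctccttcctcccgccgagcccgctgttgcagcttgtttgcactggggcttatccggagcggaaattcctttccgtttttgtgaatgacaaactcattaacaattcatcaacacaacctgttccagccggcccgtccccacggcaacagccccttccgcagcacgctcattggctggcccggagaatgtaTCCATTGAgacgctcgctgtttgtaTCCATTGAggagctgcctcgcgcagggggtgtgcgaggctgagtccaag

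In DUSP1 the capitals are TGACGTCA, the full cyclic-AMP response element, at position −125 from the start, and TATAAA at −30. In DUSP6 they are 2 matches on the opposite strand to TNAATGNA, a loose spelling of the octamer bound by the repressor CIC, at positions −24 and 2. Over 27305 promoters of the same length, TGACGTCA was in 1.98%, TATAAA in 12% and TNAATGNA in 11.3%, and each was in 1 of the 7 windows here. Of ETS sites only the long spelling CCGGAAG was searched (10.7% of promoters), and it was in none of the 7. Shorter or other spellings of ETS sites were not searched. The AP-1 element TGANTCA (7.76%) and the CArG box of serum response factor (1.29%) were also in none of the 7. The motifs do not contain one another. A match describes letters in the window, and no binding was measured.

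The Sprouty genes were low in abundance apart from SPRY2. SPRY2, the most abundant family member in these cells, had 17.9 and 15.3 CPM with shRNA1, 15.4 and 16.1 CPM with shRNA2, and 23.3 CPM in both shControl libraries. The groups did not overlap, and the log2 change was −0.53 ± 0.10 (edgeR adjusted p = 2.8e-04).

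SPRY4, whose product also restrains signalling from receptors to RAF, rested on 17 to 32 counts per knockdown library and 43 and 85 counts in the controls. Its level was 1.95 and 0.889 CPM with shRNA1, 0.889 and 0.957 CPM with shRNA2, and 2.31 and 3.03 CPM in shControl. shRNA1 replicate 1 stood nearly as high as the lower control library, and the other 3 knockdown libraries lay together near 0.9 CPM. The log2 change was −1.54 ± 0.41 with shRNA2 (edgeR adjusted p = 0.0056) and −0.94 ± 0.42 with shRNA1, which did not pass (0.0714). The shRNA1 value of SPRY4 depended on which shRNA1 library was kept: it passed without replicate 1 (−1.57, 0.0186) and was −0.44 (0.442) without replicate 2. It also passed under total counts (−1.09, 0.0390) and was −0.73 (0.333) without shControl replicate 2. The shRNA2 call was lost without shControl replicate 2 (−1.33, 0.0732). The mean of both hairpins was −1.24 ± 0.35 (0.0060), a call lost without shControl replicate 2 (−1.03, 0.111).

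SPRY1 had the lowest CPM of the 10 genes in each group mean, before scaling to length. Counts of SPRY1 were 10 to 30 per knockdown library and 26 and 57 in the controls. Its level was 0.672 and 1.10 CPM with shRNA1, 0.834 and 0.670 CPM with shRNA2, and 1.39 and 2.03 CPM in shControl. The knockdown libraries were all below the controls, but the 2 controls differed from each other by more than the nearest knockdown library did from them. With shRNA1 the log2 change of SPRY1 was −0.94 ± 0.48 (edgeR adjusted p = 0.114), and with shRNA2 it was −1.18 ± 0.47 (0.0448), a call lost in DESeq2 (0.0943) and without any one library of shRNA2 or shControl (0.0570 to 0.314). The mean of both hairpins was −1.06 ± 0.40 (edgeR adjusted p = 0.0312). For SPRY1 that call was lost in DESeq2 (−1.07, 0.0747) and on leaving out shRNA1 replicate 1 (−0.90, 0.0742). It was also lost on leaving out replicate 2 of shRNA2 (−0.999, 0.0681) or of shControl (−0.76, 0.324).

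The SPRED genes split. SPRED1, the family member mutated in Legius syndrome, was 42.5 and 41.8 CPM with shRNA1 and 42.7 and 37.8 CPM with shRNA2, against 66.2 and 64.3 CPM in shControl. It fell by about the same amount with each hairpin (mean −0.66 ± 0.07, edgeR adjusted p = 3.1e-07). SPRED2 was 42.9 and 40.5 CPM with shRNA1 and 46.9 and 44.6 CPM with shRNA2, against 49.5 and 48.5 CPM in shControl. All knockdown libraries were below both controls, and shRNA2 replicate 1 was the nearest to them.

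The change of SPRED2 was −0.23 ± 0.07 with shRNA1 (edgeR adjusted p = 0.0161), −0.10 ± 0.07 with shRNA2 (0.291) and −0.16 ± 0.06 in the mean (0.0370). The call in the mean was lost in DESeq2 (0.0630), and against a fold of 1.2 (0.911). It was also lost on leaving out replicate 2 of shRNA1 (−0.13, 0.126) or of shRNA2 (−0.15, 0.0816), or either control library (−0.16, 0.142 for replicate 1; −0.185, 0.0975 for replicate 2). The shRNA1 call of SPRED2 was lost without shRNA1 replicate 2 (−0.18, 0.132) or shControl replicate 1 (−0.23, 0.0658), and the shRNA2 value passed under total counts (−0.25, 0.0087). With total counts in place of TMM scaling the mean was −0.32, while the median of all genes was −0.18 with total counts and −0.03 with TMM.

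ETV5, the transcriptional activator of the group, had 29.9 and 31.3 CPM with shRNA1 and 26.7 and 26.6 CPM with shRNA2, against 54.8 and 56.3 CPM in shControl. The 3 groups were each tight, and the shRNA2 libraries lay lowest. The log2 change was −0.86 ± 0.08 with shRNA1 (edgeR adjusted p = 2.2e-07), −1.06 ± 0.08 with shRNA2 (1.7e-08) and −0.96 ± 0.07 in the mean (5.7e-09). Its gene spans chromosome 3 from 186046308 to 186110318 on the minus strand in GENCODE 29 and 720 of its exon bases lie within the span of DGKG on the same strand. DGKG had 26 to 101 counts in knockdown and 33 counts in each control library, beside 445 to 962 and 1022 to 1579 for ETV5.

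**Figure D2:**
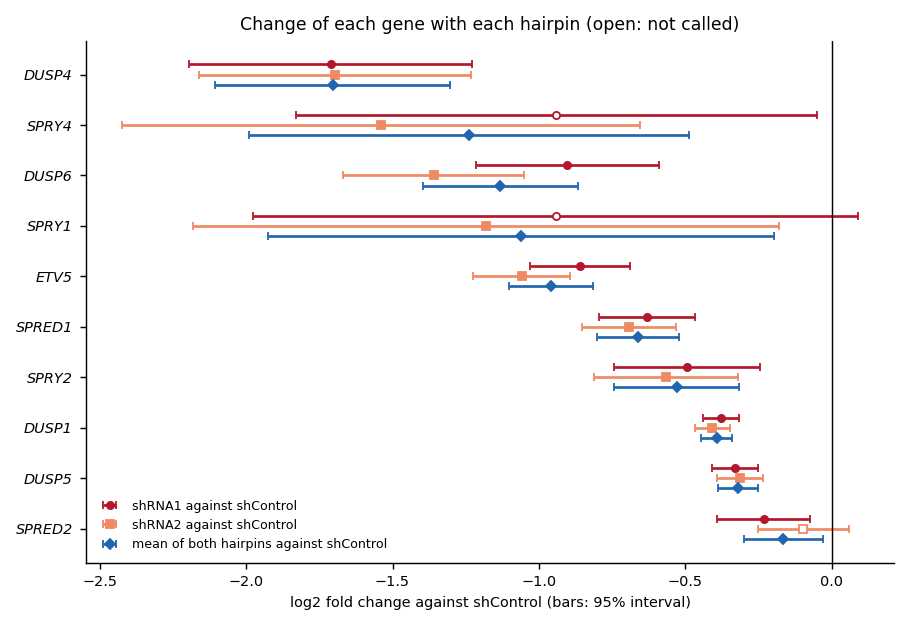
Log2 fold change of each gene against shControl (horizontal axis) with shRNA1, shRNA2 and their mean, with 95% intervals from the edgeR fit; filled markers passed an adjusted p of 0.05 and open ones did not. All points lie left of 0, from −1.71 for DUSP4 with shRNA1 to −0.10 for SPRED2 with shRNA2, and the intervals of SPRY1 and SPRY4 are the widest.

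The hairpins themselves did not differ detectably in any of the 10 genes. None was called for shRNA1 against shRNA2 by edgeR, and none by DESeq2. Of all tested genes edgeR called 0.0312% (0.00623% higher and 0.0249% lower). An unadjusted edgeR p under 0.05 was reached by 2 of the 10 genes. The share of all tested genes at that unadjusted limit was not counted, so nothing is read from the 2. These 2 were DUSP6 (log2 0.46, 95% interval 0.13 to 0.78, edgeR adjusted p = 0.905) and ETV5 (0.20, interval 0.03 to 0.37, adjusted p = 0.916), both higher with shRNA1 than with shRNA2. For SPRY4 the interval ran from −0.34 to 1.54 and for SPRY1 from −0.84 to 1.31, so differences as large as these limits could go unseen there. For DUSP1 (−0.03 to 0.09) and DUSP5 (−0.10 to 0.06) the intervals were narrow.

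Levels of different genes can be compared only per length, here as CPM per kilobase of merged exons in GENCODE 29. DUSP1 stood first in every group, at 454 CPM per kilobase with shRNA1, 446 with shRNA2 and 591 in shControl. DUSP5 was second, at 97.2, 98.4 and 122 in the same groups, more than 10 times the next gene. A middle set of SPRED2, ETV5, SPRED1 and SPRY2 lay at 5.10 to 8.09 with shRNA1, 4.60 to 8.88 with shRNA2 and 7.66 to 9.58 in shControl. DUSP6 followed at 2.54, 1.83 and 4.73, then DUSP4 at 0.422, 0.421 and 1.38.

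SPRY1 and SPRY4 were last, both below 0.5 CPM per kilobase in every group mean. Within the middle set the order changed. ETV5 was the highest of the 4 in shControl, where its libraries overlapped those of SPRED2, and the lowest of the 4 with shRNA2, where they overlapped those of SPRED1. SPRY2 overlapped ETV5 and SPRED1 with shRNA1, and SPRED1 with shRNA2. SPRY1 and SPRY4 also overlapped in shControl and with shRNA1. The 2 most abundant genes thus had falls of 0.32 to 0.39 log2 units in size, while the genes with falls beyond 1 unit (DUSP4, SPRY4, DUSP6 and SPRY1) were the 4 lowest per length.

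The closest relatives outside the 10 genes did not all follow them. Of all tested genes 28.9% were lower and 28.6% higher in the mean of both hairpins. Of 10 such relatives 8 were tested, and 4 were lower, 1 higher and 3 not called in that mean (median −0.59). ETV1 and ETV4, the other PEA3 factors, were lower. ETV1 was 11.3 and 12.2 CPM with shRNA1 and 11.6 CPM in both shRNA2 libraries, against 18.0 and 20.8 CPM in shControl (−0.73 ± 0.11, edgeR adjusted p = 2.7e-05). ETV4 was −0.88 ± 0.26 (0.0089), a call lost without shControl replicate 1 (−0.80). By hairpin, ETV4 was called with shRNA1 (−1.06 ± 0.32, edgeR adjusted p = 0.0108) but not with shRNA2 (−0.69 ± 0.30, 0.0647). All exons of ETV4 lie within the span of DHX8 on the opposite strand. Whether they meet exons of DHX8 was not examined, and the strand setting of the counting is not given in the sources used here. How far reads of DHX8 enter the ETV4 counts was therefore not tested. DHX8 had 688 to 1771 counts in knockdown libraries and 747 and 1231 in controls, beside 30 to 148 and 103 and 137 for ETV4.

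DUSP7 encodes the cytoplasmic ERK phosphatase most like DUSP6, and it went the other way. It had 19.35 and 24.1 CPM with shRNA1 and 22.6 and 22.1 CPM with shRNA2, against 11.6 and 14.02 CPM in shControl. All knockdown libraries were above both controls, at 172% of the control level (0.78 ± 0.12, edgeR adjusted p = 4.0e-05). DUSP7 was thus higher than DUSP6 in every knockdown library per length (3.85 and 3.96 against 2.54 and 1.83 CPM per kilobase in group means of shRNA1 and shRNA2) and lower than it in shControl (2.27 against 4.73).

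Of the phosphatases for JNK and p38, DUSP8 was lower (−1.06 ± 0.22, edgeR adjusted p = 6.0e-04) and DUSP16 slightly lower (−0.31 ± 0.09, 0.0057), a call that DUSP16 lost without shControl replicate 2 (−0.24, 0.0976). DUSP10 was not called (−0.09 ± 0.07, 0.304), but was called lower under total counts (−0.24, 0.0081). DUSP9, a cytoplasmic ERK phosphatase, was not called (−0.44 ± 0.37, 0.333) and had the opposite sign without shControl replicate 1 (0.08, 0.919). SPRED3 was not called (−0.87 ± 0.68, 0.336). It was called without the filter on low counts (−0.89, 0.0349) and without shRNA2 replicate 2 (−1.60, 3.6e-04), and was −0.48 without shRNA2 replicate 1 (0.168) or shControl replicate 2 (0.716). DUSP2 and SPRY3 had too few counts to test.

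Other transcripts that rise with ERK activity moved mostly the same way, without including all immediate early genes. Of 24 such genes 15 were lower, 1 higher and 8 not called (median −0.67), where 28.9% of all tested genes were lower and 28.6% higher. EMP1, a membrane protein gene, averaged 2.31 ± 0.798 CPM with shRNA1 and 2.196 ± 0.196 CPM with shRNA2, against 8.86 ± 0.388 CPM in shControl (SD, n = 2 each; log2 −1.96 ± 0.22, edgeR adjusted p = 8.4e-07). PHLDA1, a pleckstrin-homology protein gene, averaged 90.6 and 83.6 CPM, against 316 CPM in shControl (−1.86 ± 0.04, 1.8e-14). MAFF, a small MAF factor, changed by −1.86 ± 0.08 (2.5e-11). The ephrin receptor gene EPHA4 was the exception, at 12.6 and 12.2 CPM with shRNA1 and shRNA2, against 6.50 CPM in shControl (0.94 ± 0.16, 1.4e-04).

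The classical immediate early genes FOS and EGR1, picked after their values were seen, were not called. FOS averaged 1267 and 1290 CPM with shRNA1 and shRNA2, against 1261 CPM in shControl (0.02 ± 0.03, edgeR adjusted p = 0.543). EGR1 averaged 1018 and 1038 CPM, against 1045 CPM (−0.02 ± 0.03, 0.542). The AP-1 subunit gene FOSL1 and the cyclin gene CCND1, also picked afterwards, fell by 1.36 and 1.45 log2 units. Under total counts 21 of the 24 genes were lower and 1 higher, and the list median was −0.82. All tested genes shifted too under total counts, with 6028 of 16039 lower, 3398 higher and a median of −0.18. The tallies of other lists under total counts, given below, stand beside that same shift.

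**Figure D3:**
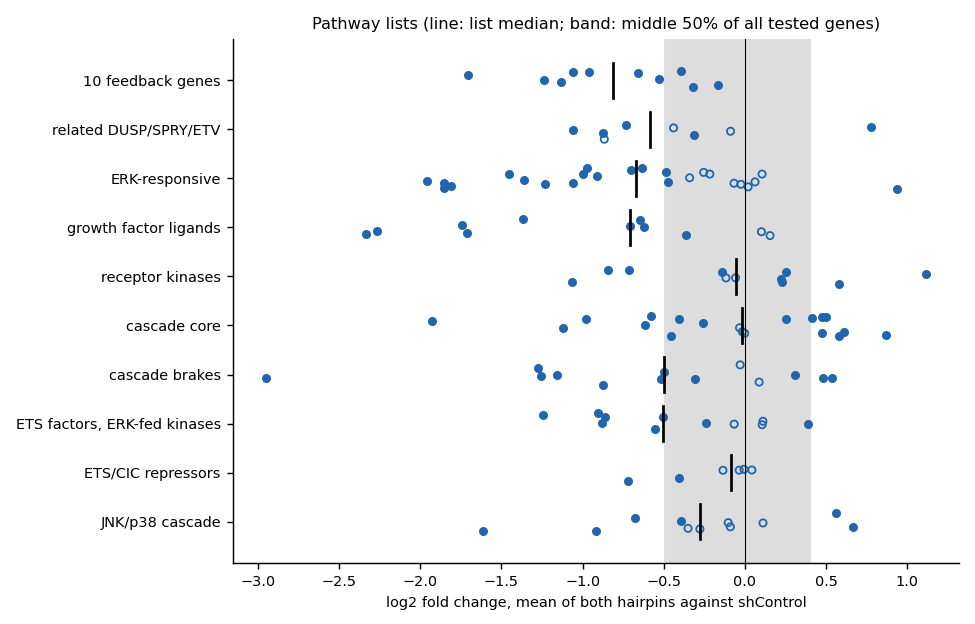
Log2 fold change of every tested gene of 10 lists for the mean of both hairpins against shControl, with filled points for called genes, a line at each list's median, and a grey band for the middle 50% of all tested genes (−0.49 to 0.40). The 10 feedback genes have the lowest median of the 10 lists, at −0.81, followed by growth factor ligands, at −0.71, and the other ERK-responsive genes, at −0.67.

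Upstream of ERK, the ligand genes were mostly lower and the receptor and cascade genes moved both ways, as did all tested genes (28.6% higher and 28.9% lower). Of 11 tested ligand genes 9 were lower, none higher and 2 not called (median −0.71). Under total counts the tallies of the ligand genes were the same. AREG and BTC, ligands of the EGF receptor, changed by −2.27 ± 0.25 (edgeR adjusted p = 7.7e-07) and −2.33 ± 0.34 (2.1e-05). AREG averaged 1.34 and 1.47 CPM with shRNA1 and shRNA2, against 6.71 CPM in shControl. FGF1 had 2 to 7 counts in knockdown libraries and 10 and 21 in controls, and its call (−1.75 ± 0.75, 0.0484) was lost without any one of the 6 libraries (adjusted p = 0.0612 to 0.343) and in DESeq2 (0.124).

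Of 11 tested receptor genes 5 were higher, 4 lower and 2 not called (median −0.06), or 3 higher and 5 lower under total counts. AXL, a receptor kinase linked to drug resistance, averaged 517 and 528 CPM with shRNA1 and shRNA2, against 939 CPM in shControl (−0.85 ± 0.03, edgeR adjusted p = 1.5e-12). FGFR3 (1.12 ± 0.32, 0.0079) and PDGFRB (−1.06 ± 0.28, 0.0042) were scarce, and both lost their calls without shControl replicate 1 (0.0950 and 0.101).

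In the core of the cascade 8 of 19 genes were higher, 8 lower and 3 not called (median −0.02), or 8 higher and 10 lower under total counts. The scaffold gene KSR1 averaged 3.94 and 4.19 CPM with shRNA1 and shRNA2, against 15.5 CPM in shControl (−1.93 ± 0.15, edgeR adjusted p = 1.3e-08). The MEK gene MAP2K2 was higher (0.58 ± 0.04, 3.2e-09), and so was the ERK gene MAPK3, picked after its values were seen (0.61 ± 0.05, 9.6e-08).

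Other brakes on the cascade leaned lower, with 8 of 13 lower, 3 higher and 2 not called (median −0.50). All tested genes were 28.9% lower and 28.6% higher. Under total counts 9 of the 13 brakes were lower and 2 higher. ERRFI1 encodes MIG6, a feedback inhibitor of the EGF receptor, and averaged 201.1 and 200.1 CPM with shRNA1 and shRNA2, against 1548 CPM in shControl (−2.95 ± 0.03, edgeR adjusted p = 1.8e-18). RASA3, a RAS GTPase-activating protein gene (−1.27 ± 0.08, 1.0e-09), and IL17RD, which encodes the FGF signalling inhibitor SEF (−1.255 ± 0.20, 4.6e-05), were lower too. PEBP1, which encodes the RAF kinase inhibitor protein, was higher (0.48 ± 0.04, 2.2e-08).

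Among factors that bind ETS sites or act just below ERK, 7 of 11 genes were lower, 1 higher and 3 not called (median −0.50). The shares over all tested genes were 28.9% lower and 28.6% higher. Under total counts 8 of these 11 genes were lower and 1 higher. ETS1 averaged 144 and 143 CPM with shRNA1 and shRNA2, against 339 CPM in shControl (−1.24 ± 0.03, edgeR adjusted p = 9.1e-14), and ETS2 (−0.88 ± 0.06, 3.7e-09) and the kinase gene RPS6KA5 (−0.91 ± 0.11, 3.7e-06) were lower. The kinase gene RPS6KA1 was higher (0.39 ± 0.06, 2.4e-05). Of 6 repressors in this layer 2 were lower and 4 not called (median −0.09), a share near the 28.9% of all tested genes. Nothing is read from it about the repressors as a set. The 2 lower genes were ETV6 (−0.72 ± 0.06, edgeR adjusted p = 1.8e-08) and CIC (−0.41 ± 0.04, 9.9e-07). CIC averaged 121 CPM with each hairpin, against 161 CPM in shControl. Under total counts 4 of these 6 were lower.

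The JNK and p38 branch, which DUSP1 also restrains, had 2 of 11 genes higher, 4 lower and 5 not called (median −0.28), or 2 higher and 7 lower under total counts. With TMM these shares lay near those of all tested genes (28.6% higher and 28.9% lower), and nothing is read from them about this branch. The p38 delta gene MAPK13 was scarce and lower (−1.61 ± 0.41, edgeR adjusted p = 0.0027). The kinase genes MAP2K4 (−0.92 ± 0.08, 8.8e-08) and MAPK8 (−0.68 ± 0.09, 4.6e-06) were lower and MAP2K3 was higher (0.66 ± 0.07, 8.1e-07).

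The genes with the pattern most like DUSP6 and SPRY4 were found by the root mean square difference in log2(CPM + 0.5), centred on each gene's mean over the 6 libraries. For DUSP6 they were XPOTP1 (0.0574), RIMS3 (0.0675) and POLR1H (0.0783). For SPRY4 they were LNX1 (0.102), SIAE (0.112) and RP11-298I3.1 (0.125). All but SIAE had a mean under 2 CPM, where the added 0.5 narrows differences.

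**Figure D4:**
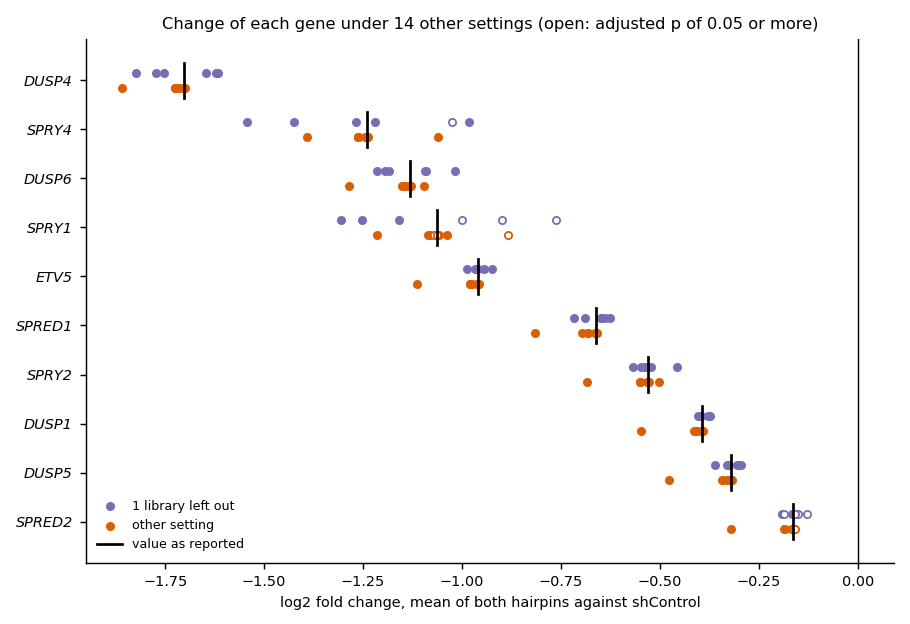
Log2 fold change of each gene for the mean of both hairpins against shControl (black line) and under 14 other settings, with 1 library left out or with another normalisation, filter, test or depth; open points had an adjusted p of 0.05 or more. Every point lies left of 0, and open points occur for SPRY1, SPRY4 and SPRED2.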

How the data were processed

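The table as deposited gives counts, whole numbers by gene, in 1 column for each of 6 libraries. Per the submitters' processing notes the authors used FastQC 0.11.9, Trim Galore 0.6.7, HISAT2 2.2.1 and StringTie 2.2.1 with hg38. For the counting tool, annotation release and strand setting: not given in the sources used here.

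Counts were tested in R 4.3.3 with edgeR 4.0.16. Genes passed filterByExpr by group, TMM scaled the library sizes, and a robust quasi-likelihood model was fitted to the 3 group means over all 6 libraries. A call needed an adjusted p (Benjamini-Hochberg, all 16039 tested genes) under 0.05. Errors of log2 changes are standard errors. The steps were run on simulated data in which far fewer genes changed than were called here. That run does not test the scaling for data with so many changes. Alternatives were other scalings, filters, DESeq2 1.42.0, a test against a fold, a replicate block, thinned counts and leaving out each library. Replicates of a group differed beyond counting noise (chi-square per degree of freedom 4.57 to 6.64), so none was merged.

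The 10 genes and all lists were chosen with earlier results of these data known. Outside the 10 genes and their relatives, each list names the 3 called genes with the largest change and the one with the smallest p in the other direction; some genes that the rule names are not reported here. Positions and exon lengths come from GENCODE 29 on GRCh38, and promoter sequences from RefSeq.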

Additional observations from a re-analysis of the deposited data

How the results depend on the processing

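The directions of the 10 feedback genes against shControl were the same under all 15 settings tried. In the mean of both hairpins 7 to 10 were called lower with 1 library left out, 8 in DESeq2, against a fold of 1.2 or with counts thinned to the smallest library, and 10 otherwise. Of all tested genes 28.9% were called lower with TMM in the main fit, and 6028 of 16039 under total counts. Their shares under the other settings are not given here, so the counts of the 10 genes are not set against them. Total counts in place of TMM gave 36.0% of calls as higher, against 49.7% with TMM. The LINC02068 change lost its call in DESeq2 (−1.46), against a fold of 1.2 (−1.46) and in thinned counts (−1.08), and ranged from −1.02 to −2.26 with 1 library left out. Between hairpins, 5 of all genes were called, 69 without the filter, 19 in DESeq2, 16 with only the groups compared, and 12 to 31 with 1 library left out; the cause was not tested. The DUSP4 difference between hairpins (−0.014) turned to 0.0097 in thinned counts and ran from −0.1899 to 0.215 with 1 library left out. With 1 library left out, that of SPRY1 ran from −0.1759 to 0.5312, SPRY2 from −0.0413 to 0.1828, SPRY4 from −0.0476 to 1.0772 and SPRED1 from −0.0238 to 0.1567. DUSP9 with shRNA2 turned to 0.0902 in thinned counts and ran from −0.5066 to 0.4338 with 1 library left out, and its mean from −0.8631 to 0.0772.

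Deviations of same-numbered libraries from their group means were nearly uncorrelated between groups (−0.0488 to 0.00498). With 2 libraries per group this cannot decide whether same-numbered libraries shared a culture or day, which the labels do not say. With a replicate block, calls among the 10 genes were 8 with shRNA1, 8 with shRNA2 and 10 in their mean, calls of all genes between hairpins were 9, LINC02068 was −1.52 (adjusted p = 0.0506), SPRED3 in the mean was called (−0.94, 0.0299) and the DUSP4 difference between hairpins was 0.0049. Leaving out a library assumes that the lone library of its group varies like the others. The fit to only the groups compared does not apply to the mean of both hairpins. Counts under about 30 per library limit SPRY1, SPRY4 and LINC02068.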
